A study of Caenorhabditis elegans with 22 samples.

Results

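The genes described here are 93 of the 45460 gene identifiers measured by RNA-seq in Caenorhabditis elegans embryos, and they were chosen by their response to salt. The response, called the change, was the mean FPKM (fragments per kilobase of transcript, scaled to the mapped fragments of the library) at 500 mM NaCl divided by the mean FPKM at 50 mM NaCl plus 1. A gene was kept when its change was over 2 in the wild type of a second experiment, when the change in daf-16 mutants of the same experiment was under 50% of that value, and when the change in the wild type of a first experiment was under 2. Of 1026 genes with a change over 2 in the wild type of experiment 2, 168 had a daf-16 change under 50% of it, and 93 of these also had a change under 2 in experiment 1. These values chose the genes, so all contrasts among the 17 wild-type and daf-16 libraries are given as descriptions with no test. The 5 libraries of ssu-1 mutants were not used in the choice, and the salt response was tested in them alone.

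The study asked how the salt response of embryos depends on the cytosolic sulfotransferase gene ssu-1 and on daf-16. Embryos were kept for 3 h on plates with 50 or 500 mM NaCl and total RNA was sequenced in 22 libraries. Experiment 1 held Bristol N2, the wild-type strain, with 2 libraries at 50 mM (replicates 1 and 2) and 3 at 500 mM (replicates 1 to 3), and ssu-1 with the same numbers. Experiment 2 held N2 with 3 libraries at 50 mM (replicates 3 to 5) and 3 at 500 mM (replicates 4 to 6), and daf-16 with 3 libraries at each NaCl level. The mutants were ssu-1(fc73) and daf-16(m26) by the growth protocol, while the strain labels list further alleles of both genes and, for ssu-1, the zIs356 transgene, which carries daf-16a/b fused to gfp under the daf-16 promoter. Each mutant was compared only with the N2 of its own experiment, and N2 replicates 3 and 4 at 50 mM carry library numbers of another run of numbers than the other 10 libraries of experiment 2. The libraries are described as biological replicates of whole embryos, so fewer cells of a type and less RNA per cell cannot be told apart.

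The number of reads per library was not in the values used here, but the steps between low FPKM values gave relative depths between 0.682 and 1.25 of the median library. The ssu-1 mRNA stood at 0.37 to 1.74 FPKM in the 5 ssu-1 libraries and at 1.78 to 2.99 FPKM in the 5 N2 libraries of experiment 1. The daf-16 mRNA was not lower in the daf-16 mutant, with 149.1, 155.6 and 155.4 FPKM at 50 mM against 88.53, 91.16 and 74.01 FPKM in N2, so its level does not check that label. Marker lists for embryonic stages and for intestine, epidermis, muscle, pharynx and neurons held no gene of the 93, and the 10 sperm markers summed to 1.36 to 2.97 FPKM over the 22 libraries.

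DAF-16 is the FOXO transcription factor of the worm insulin pathway. The insulin-like receptor DAF-2 acts through the kinases AGE-1, PDK-1 and AKT-1 to hold DAF-16 in the cytoplasm, and when the pathway is quiet DAF-16 enters the nucleus and turns on genes for stress resistance, detoxification, fat metabolism and defence. High salt lowers insulin-like signaling in embryos and young larvae, which then arrest. SSU-1 is made in the ASJ pair of sensory neurons.

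In N2 of experiment 2 the 93 genes took up 0.385% to 0.423% of the summed FPKM at 50 mM and 1.16% to 1.33% at 500 mM. In daf-16 the shares were 0.481% to 0.551% at 50 mM and 0.484% to 0.527% at 500 mM, so the ranges of both NaCl levels overlapped. In N2 of experiment 1 the shares were 0.367% to 0.445% and 0.465% to 0.522%, and in ssu-1 they were 0.283% to 0.295% and 0.267% to 0.299%. The N2 libraries at 500 mM in experiment 2 stood apart from the other 19. The choice of genes favoured this among the libraries that the rule used. The 3 members most abundant there, C02E7.7, Y47D7A.13 and ttr-15, carried between 39.8% and 62.02% of the members' summed FPKM in each library. Without these 3 the shares were 0.1749% to 0.2052% at 50 mM and 0.6465% to 0.7765% at 500 mM in N2 of experiment 2, and 0.1278% to 0.2406% in the other 16 libraries.

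**Figure D1:**
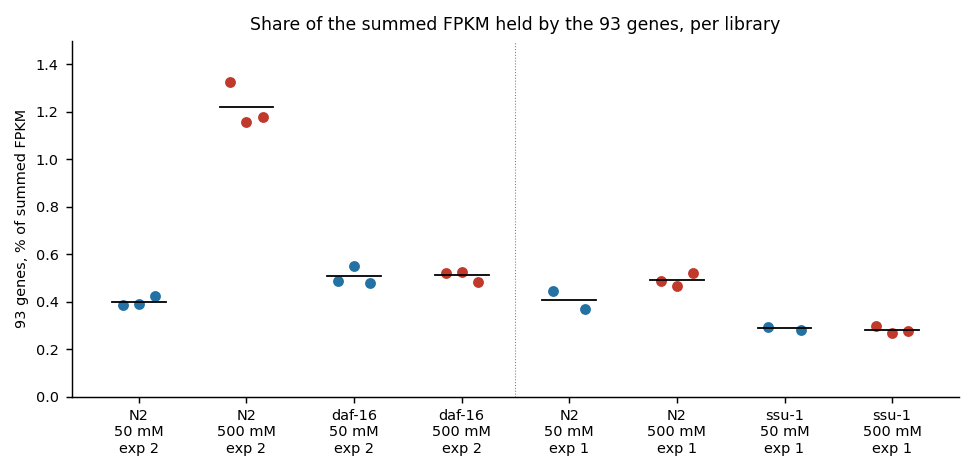
Share of the summed FPKM (%) held by the 93 genes in each of the 22 libraries (points), with the group mean (line), by genotype, NaCl level and experiment (exp). The 3 N2 libraries at 500 mM in experiment 2 lie between 1.16% and 1.33%, above all others.

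The change in N2 of experiment 2 ran from 2.017 to 12.65 with a median of 2.915, and 24 of the 93 genes were over 4. For 92 of the 93 each 500 mM library lay above each 50 mM library, as it did for 36.6% of all 14868 genes that passed the filter in experiment 2 (1 FPKM or more in 2 or more libraries). In daf-16 the median change was 0.773, with 59 genes under 1 and 3 over 2 (F15B9.6, fat-6 and F11E6.11), and the daf-16 change was a median of 23.2% of the N2 change. Each 500 mM library of daf-16 lay above each 50 mM library for 33 of the 93 (39.5% of all genes) and below for 23 (43.8% of all genes). The daf-16 and N2 levels at 50 mM had a median ratio of 0.9996 with 1 added to both means, and at 500 mM the median ratio was 0.32. At 50 mM 8 genes were over 1.5-fold higher and 3 over 1.5-fold lower in daf-16. The rule asked for a low daf-16 change, and for genes near 0 FPKM at 50 mM the change follows the 500 mM level. The choice of genes thus largely fixed the low ratio at 500 mM, and nothing is read from that ratio.

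**Figure D2:**
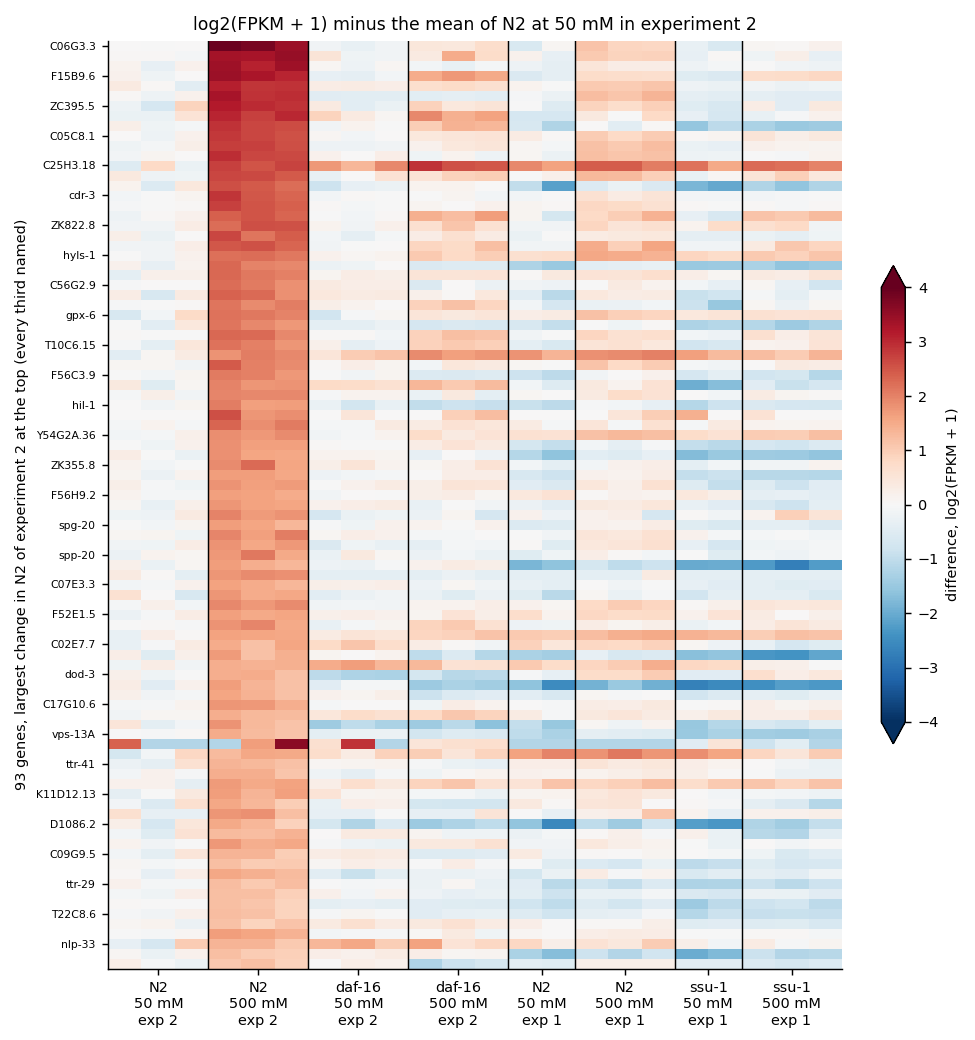
Level of the 93 genes (rows, by falling change in N2 of experiment 2) in the 22 libraries (columns), as log2(FPKM + 1) minus the gene's mean in N2 at 50 mM in experiment 2 (red higher, blue lower, scale cut at 4 either way). The 3 N2 libraries at 500 mM in experiment 2 are red for nearly all genes. The mean FPKM of N2 at 500 mM was lower in experiment 1 for 92 of the 93. Some genes there lie below the N2 level at 50 mM in experiment 2 (blue), such as clec-146 with means of 2.323 and 10.49 FPKM.

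Of the 93 genes 3 stood on a list of 34 measured genes known as DAF-16 targets: dod-3 (named for lying downstream of DAF-16), dur-1 (named for its rise in dauer larvae) and hil-1 (a linker histone). The level of dur-1 in experiment 2 was 205.9, 165.8 and 139.8 FPKM in N2 at 50 mM and 599.9, 506.3 and 495.0 FPKM at 500 mM. In daf-16 it was 185.0, 185.2 and 181.3 FPKM at 50 mM and 132.7, 171.8 and 147.4 FPKM at 500 mM. Its salt libraries were thus all higher in N2 and all lower in daf-16. In experiment 1 dur-1 went from 75.12 and 54.83 FPKM to 124.7, 117.1 and 135.2 FPKM in N2, a change of 1.905, while the 5 ssu-1 libraries lay between 50.04 and 61.59 FPKM. The ssu-1 groups overlapped for dur-1, and its log2 change of 0.12 (SE 0.12) did not pass the test (limma adjusted p = 0.45).

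The level of hil-1 in experiment 2 was 8.56, 7.69 and 9.32 FPKM in N2 at 50 mM, 38.54, 28.65 and 29.52 FPKM at 500 mM, and 3.83, 4.36 and 3.98 FPKM in daf-16 at 500 mM. These daf-16 values lay below those of daf-16 at 50 mM (6.91, 4.66 and 6.77 FPKM), so the linker histone was higher with salt in N2 and lower in daf-16. At 50 mM hil-1 was also lower in daf-16 than in N2. The third of these genes, dod-3, was lower in daf-16 than in N2 at both NaCl levels, with 9.72, 8.56 and 8.28 FPKM at 50 mM and 12.67, 9.47 and 9.72 FPKM at 500 mM. In N2 it stood at 24.50, 18.66 and 21.26 FPKM and at 59.81, 61.47 and 49.66 FPKM. In ssu-1 dod-3 rose, from 15.31 and 15.33 FPKM to 34.63, 26.09 and 29.24 FPKM (log2 change 0.92, SE 0.13, limma adjusted p = 0.000449). Its N2 change in experiment 1 was 1.983, just under the limit of 2.

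**Figure D3:**
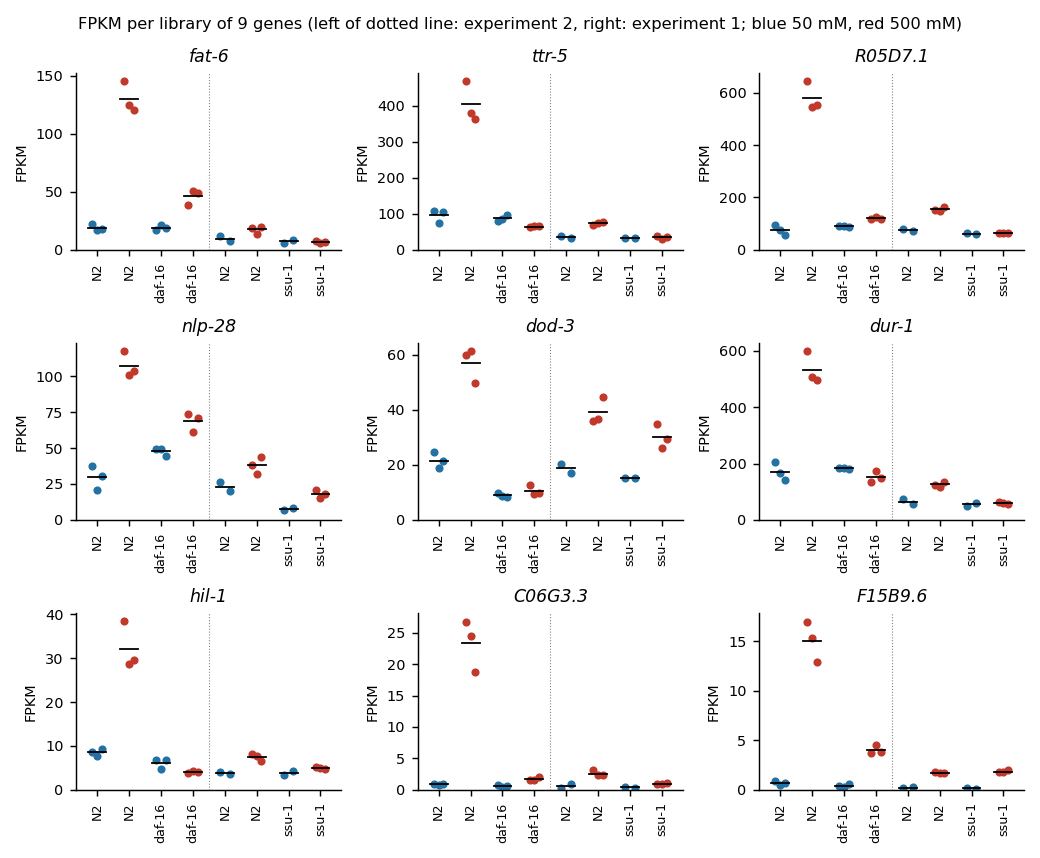
FPKM in each library (points) of 9 genes, with group means (lines), 50 mM in blue and 500 mM in red, experiment 2 (N2, daf-16) left of the dotted line and experiment 1 (N2, ssu-1) right of it. The N2 points at 500 mM in experiment 2 are the highest in all 9 panels, and of the 9 genes dod-3, nlp-28 and F15B9.6 passed the test in ssu-1.

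Members that code for antimicrobial peptides, lectins and related proteins are given next. The antimicrobial peptide gene abf-2, a defensin-like antibacterial factor, had the second largest change of the 93, at 9.499, from 0.28, 0.28 and 0.19 FPKM to 11.45, 11.30 and 12.87 FPKM. In daf-16 at 500 mM it stood at 0.62, 2.53 and 1.06 FPKM and in N2 of experiment 1 at 1.56, 1.3 and 1.36 FPKM, all far below N2 at 500 mM in experiment 2. In ssu-1 its 5 values lay between 0 and 0.46 FPKM with both groups overlapping.

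The epidermal peptide genes nlp-28 and nlp-33 belong to a family that codes for antimicrobial peptides of the skin. In experiment 2 nlp-28 went from 37.83, 20.61 and 30.88 FPKM to 117.6, 100.7 and 103.9 FPKM in N2, and from 49.45, 49.04 and 44.46 FPKM to 73.66, 61.44 and 71.12 FPKM in daf-16. Salt libraries were higher in both genotypes, with a change of 3.49 in N2 and 1.413 in daf-16. In ssu-1 nlp-28 rose from 6.75 and 8.15 FPKM to 20.80, 15.13 and 17.85 FPKM (log2 change 1.16, SE 0.16, limma adjusted p = 0.000514), a change of 2.121 beside 1.574 in the N2 of that experiment, so it was 1 of only 2 of the 93 genes with an ssu-1 change over 2. The N2 values of nlp-33 at 50 mM were 53.03, 41.66 and 136.9 FPKM, with replicate 5 close to the 172.3, 174.0 and 141.1 FPKM at 500 mM, and its daf-16 groups overlapped. Of the 20 epidermal peptide genes in the nlp and cnc families, 17 were tested in ssu-1, where 7 rose and 1 fell (beside 18.5% and 18.1% of all genes tested).

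The C-type lectin genes clec-146 and clec-233, which code for sugar-binding domains, changed by 2.521 and 2.651 in N2 of experiment 2. They were 2 of 111 lectin genes of this family that passed the filter in experiment 2, whose median change was 0.176, and of the 83 tested in ssu-1 6 rose and 41 fell (beside 18.5% and 18.1% of all genes tested). The level of clec-146 was 12.70, 7.18 and 11.59 FPKM at 50 mM and 35.11, 27.56 and 24.24 FPKM at 500 mM, against 3.06, 3.66 and 3.26 FPKM in daf-16 at 500 mM. Among the 10 libraries of experiment 1 clec-146 lay between 0.74 and 3.01 FPKM, below each N2 library of experiment 2. The saposin-like gene spp-20 and pals-6, of a family tied to intracellular infection, reached only 3.69, 5.06 and 3.07 FPKM and 3.67, 4.21 and 2.82 FPKM in N2 at 500 mM, and neither passed the filter of experiment 1.

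The lipid genes were led by fat-6, which codes for a stearoyl-CoA desaturase that makes oleic acid. Its level in N2 of experiment 2 was 22.57, 16.85 and 17.72 FPKM at 50 mM and 145.1, 124.5 and 120.8 FPKM at 500 mM, a change of 6.492. In daf-16 it went from 17.04, 21.08 and 18.87 FPKM to 38.35, 50.95 and 48.53 FPKM, a change of 2.298. The daf-16 salt libraries were all above their 50 mM libraries and all below N2 at 500 mM, so 35.4% of the N2 change was left. In experiment 1 fat-6 was 11.84 and 7.67 FPKM at 50 mM and 19.23, 13.98 and 19.74 FPKM at 500 mM in N2, and between 5.84 and 8.70 FPKM in ssu-1, where its log2 change was -0.10 (SE 0.20, limma adjusted p = 0.723). It was the only member among the 25 genes listed for fatty acid synthesis and desaturation, of which 22 were tested in ssu-1 (8 rose and 3 fell, beside 18.5% and 18.1% of all genes tested).

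Lower changes were found for vps-13A, a lipid transfer protein gene, from 25.51, 24.83 and 26.86 FPKM to 73.96, 63.63 and 58.45 FPKM in N2 of experiment 2, and in daf-16 from 19.39, 21.28 and 21.59 FPKM to 15.10, 17.62 and 16.90 FPKM. The vps-13A level was thus higher with salt in N2 and lower with salt in daf-16. For nceh-1, named for a cholesterol ester hydrolase, N2 went from 1.85, 2.54 and 1.75 FPKM to 10.62, 10.37 and 10.37 FPKM while daf-16 at 500 mM stood at 1.5, 2.94 and 1.33 FPKM. The gene icmt-1, named for an enzyme that methylates prenylated proteins, was among the members with almost no level outside N2 at 500 mM, where it was 13.67, 10.75 and 13.68 FPKM. In the other 19 libraries icmt-1 was under 1 FPKM, and the N2 libraries at 500 mM in experiment 1 were the highest of these at 0.93, 0.71 and 0.69 FPKM.

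Single members came from families of redox and detoxification enzymes: 1 of 60 ugt genes, 1 of 68 cyp genes and 1 of 42 gst genes that passed the filter in experiment 2. The median change of these families in N2 of experiment 2 was 0.312, 0.388 and 0.198. The UDP-glucuronosyltransferase gene ugt-6 was 1.60, 1.79 and 2.44 FPKM at 50 mM and 18.74, 18.46 and 16.50 FPKM at 500 mM in N2 of experiment 2, and 2.26, 2.92 and 3.12 FPKM in daf-16 at 500 mM. In experiment 1 it stood at 5.64, 5.09 and 5.83 FPKM in N2 at 500 mM and at 2.34, 2.20 and 2.12 FPKM in ssu-1 at 500 mM. It rose in ssu-1 from 1.42 and 1.31 FPKM (log2 change 0.45, SE 0.12, limma adjusted p = 0.0127, and 0.0713 without replicate 2 of ssu-1 at 50 mM). The values of ugt-6 at 500 mM did not overlap between N2 of experiment 2, N2 of experiment 1 and ssu-1.

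The cytochrome P450 gene cyp-37B1 changed by 4.097 in N2 of experiment 2, to 17.75, 15.57 and 14.53 FPKM, and by 1.009 in daf-16 and 1.059 in N2 of experiment 1. The glutathione S-transferase gene gst-3 went from 11.58, 10.76 and 14.98 FPKM to 30, 29.69 and 24.86 FPKM in N2 and the glutathione peroxidase gene gpx-6 from 3.05, 4.84 and 9.86 FPKM to 27.87, 26.15 and 24.04 FPKM, with replicate 5 the highest 50 mM library in both. At 500 mM in daf-16 these 2 genes lay between 9.66 and 10.56 FPKM and between 7.36 and 7.97 FPKM. The cadmium-response gene cdr-3 was under 0.2 FPKM at 50 mM and at 6.79, 5.02 and 4.43 FPKM at 500 mM in N2 of experiment 2, and the 500 mM libraries of N2 in experiment 1 gave 0.64, 0.36 and 0.55 FPKM. All of these enzymes were lower at 500 mM in N2 of experiment 1 than in N2 of experiment 2, and none but ugt-6 passed the test in ssu-1, for which cdr-3 failed the filter.

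Of the 93 genes 5 belonged to the transthyretin-like family of small secreted proteins, of 47 that passed the filter in experiment 2. The largest change was that of ttr-5, from 108.2, 75.9 and 104.1 FPKM to 469.2, 381.9 and 365.2 FPKM in N2 of experiment 2. In daf-16 ttr-5 was lower with salt, at 80.91, 84.58 and 96.54 FPKM and then 62.68, 65.38 and 66.15 FPKM, and in experiment 1 it reached 70.04, 73.39 and 77.34 FPKM in N2 while the 5 ssu-1 libraries lay between 31.19 and 38.94 FPKM. The most abundant was ttr-15, from 504.4, 399.4 and 543.5 FPKM to 1091, 969.9 and 935.4 FPKM in N2 and with a change of 0.9215 in daf-16. In ssu-1 ttr-15 rose from 119.4 and 141.0 FPKM to 262.6, 213.6 and 220.8 FPKM (log2 change 0.83, SE 0.15, limma adjusted p = 0.0018), close to the 269.0, 210.6 and 279.0 FPKM of N2 at 500 mM in that experiment.

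The other 3 transthyretin-like genes had changes between 2.096 and 2.287 in N2 of experiment 2 and between 0.7932 and 0.9078 in daf-16. In ssu-1 ttr-44 rose (log2 change 0.37, SE 0.13, limma adjusted p = 0.0473), ttr-41 fell from 112.3 and 101.9 FPKM to 92.80, 84.40 and 77.32 FPKM (log2 change -0.33, SE 0.08, limma adjusted p = 0.00758), and ttr-29 gave a log2 change of 0.29 that did not pass the test (limma adjusted p = 0.252). In ssu-1 the calls for members of this family went both ways. Of the 45 transthyretin-like genes tested 5 rose and 6 fell (beside 18.5% and 18.1% of all genes tested). Nothing is read about the family from these counts. The call for ttr-44 was lost in 10 of 17 alternative analyses (limma adjusted p from 0.0126 to 0.41) and that for ttr-41 in 1, without replicate 1 of ssu-1 at 50 mM (0.074).

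The cuticle collagen genes col-12 and col-146 code for collagens of the outer coat of the worm. The level of col-146 in N2 of experiment 2 went from 2.78, 2.79 and 3.03 FPKM to 15.98, 13.33 and 15.12 FPKM, and in daf-16 it reached 6.37, 7.71 and 6.02 FPKM. In N2 of experiment 1 the groups overlapped, with 2.58 and 1.40 FPKM at 50 mM and 2.22, 2.31 and 2.59 FPKM at 500 mM, while in ssu-1 col-146 rose from 1.14 and 0.35 FPKM to 3.05, 2.27 and 3.07 FPKM (log2 change 1.15, SE 0.22, limma adjusted p = 0.00262). Its ssu-1 libraries were the lower ones at 50 mM and overlapped with N2 at 500 mM. The level of col-12 was 113.6, 101.5 and 105.0 FPKM and then 247.3, 217.1 and 219.3 FPKM in N2 of experiment 2, and its log2 change of 0.38 in ssu-1 missed the threshold (SE 0.14, limma adjusted p = 0.0525). Of 89 collagen genes tested in ssu-1, 6 rose and 27 fell (beside 18.5% and 18.1% of all genes tested).

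Genes of cell structure and of gene control included hyls-1, which codes for a centriole protein needed to build cilia, anc-1, which codes for a giant protein that anchors nuclei, and the homeobox gene ceh-79. The hyls-1 level went from 9.09, 8.22 and 10.53 FPKM to 46.22, 46.86 and 42.94 FPKM in N2 of experiment 2. The next protein-coding gene in the RefSeq annotation, C05C8.1, is also a member and went from 10.89, 9.18 and 12.31 FPKM to 82.49, 74.00 and 67.84 FPKM. Both neighbours were also higher at 500 mM in daf-16, at 16.77 to 19.93 FPKM for hyls-1 and 14.67 to 16.29 FPKM for C05C8.1. In ssu-1 hyls-1 rose by a log2 change of 0.23 (SE 0.08, limma adjusted p = 0.0466), a call lost in 11 of 17 alternatives (limma adjusted p from 0.0269 to 0.269), and C05C8.1 had a log2 change of 0.30 (SE 0.11, limma adjusted p = 0.0607).

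The anc-1 level was higher in daf-16 than in N2 at 50 mM, with 29.25, 36.09 and 32.74 FPKM against 18.80, 22.06 and 22.50 FPKM, and lower at 500 mM, with 37.29, 45.07 and 39.96 FPKM against 59.25, 53.41 and 51.47 FPKM. Salt libraries were thus higher in both genotypes, and the daf-16 change was 48.9% of that of N2. For ceh-79 N2 went from 8.31, 6.31 and 6.72 FPKM to 22.86, 20.20 and 17.29 FPKM, whereas daf-16 went from 8.17, 7.63 and 8.45 FPKM down to 3.47, 4.51 and 4.90 FPKM. In experiment 1 ceh-79 and anc-1 lay between 3.76 and 7.57 FPKM and between 20.24 and 29.87 FPKM, and neither passed the test in ssu-1.

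Many of the largest changes belonged to genes known only by their sequence names. The largest of all was C06G3.3, at 0.85, 0.84 and 0.85 FPKM at 50 mM and 26.78, 24.52 and 18.77 FPKM at 500 mM in N2 of experiment 2. In daf-16 at 500 mM it was 1.52, 1.48 and 1.99 FPKM, in N2 of experiment 1 it was 3.09, 2.37 and 2.30 FPKM, and in ssu-1 0.94, 0.90 and 1.07 FPKM. The 500 mM libraries of N2 in experiment 1 lay above those of ssu-1 and daf-16 and below those of N2 in experiment 2. For H39E23.3 the same order was wider, with 12.36, 8.99 and 9.57 FPKM in N2 of experiment 2, 2.19, 1.90 and 2.45 FPKM in N2 of experiment 1, and at most 0.06 FPKM in the daf-16 and ssu-1 libraries at either NaCl level.

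The most abundant of these genes with a large change was R05D7.1, from 95.42, 75.73 and 55.30 FPKM to 644.7, 543.5 and 551.7 FPKM in N2 of experiment 2. Its daf-16 level went from 89.78, 92.39 and 88.55 FPKM to 118.8, 126.0 and 116.5 FPKM. In experiment 1 it went from 81.39 and 72.22 FPKM to 152.8, 149.1 and 161.8 FPKM in N2, a change of 1.987, and the 5 ssu-1 libraries stayed between 60.64 and 66.08 FPKM. The ssu-1 groups overlapped for R05D7.1, with a log2 change of 0.05 (SE 0.06, limma adjusted p = 0.547).

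Others of the 25 largest changes were those of ZC395.5 (7.023), C18D11.6 (6.757), Y9C9A.16 (5.932), F53A9.1 (5.148), M04C9.2 (4.56) and C56G2.9 (3.916, from 3.2, 3.35 and 3.37 FPKM to 19.19, 16.99 and 14.42 FPKM). In N2 at 500 mM in experiment 2 ZC395.5 was 33.20, 28.96 and 27.31 FPKM and F53A9.1 70.56, 64.89 and 55.43 FPKM, and in daf-16 at 500 mM they were 6.23, 4.15 and 4.46 FPKM and 12.11, 12.15 and 11 FPKM. C18D11.6, Y9C9A.16 and M04C9.2 were at most 1.3 FPKM in N2 at 50 mM and between 4.61 and 12.00 FPKM at 500 mM in experiment 2, and none of the 6 genes passed the test in ssu-1, for which M04C9.2 failed the filter.

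F15B9.6 and F11E6.11 had the largest log2 changes of the 75 genes tested in ssu-1. The level of F15B9.6 was 0.88, 0.49 and 0.71 FPKM and then 17.02, 15.31 and 12.94 FPKM in N2 of experiment 2, and 3.72, 4.57 and 3.81 FPKM in daf-16 at 500 mM. In experiment 1 it was 1.79, 1.74 and 1.71 FPKM in N2 at 500 mM and 1.75, 1.81 and 1.97 FPKM in ssu-1 at 500 mM, from 0.21 and 0.13 FPKM (log2 change 1.28, SE 0.13, limma adjusted p = 7.65e-05). F11E6.11 rose in ssu-1 from 0.54 and 0.25 FPKM to 3.33, 3.01 and 3.69 FPKM (log2 change 1.64, SE 0.24, limma adjusted p = 0.000593), with 2.40, 2.85 and 4.11 FPKM in N2 at 500 mM. The N2 and ssu-1 values at 500 mM overlapped for both genes.

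Some members overlap other genes, and the reads were counted by strand. C08A9.3 overlaps sod-3, a superoxide dismutase gene and known DAF-16 target that is no member, whose mean was 6.09 FPKM at 50 mM and 171.5 FPKM at 500 mM in N2 of experiment 2. The level of C08A9.3 was at most 0.10 FPKM at 50 mM and 5.97, 5.05 and 4.53 FPKM at 500 mM in the same libraries, and 0.13, 0.06 and 0.18 FPKM in daf-16 at 500 mM, where the sod-3 mean was 5.08 FPKM. Whether its values come from sod-3 reads was not tested. ZK822.8, annotated as an antisense RNA, overlaps ZK822.1 and was listed at 0 in 2 of the 3 N2 libraries at 50 mM and at 4.22, 5.67 and 5.42 FPKM at 500 mM.

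C25H3.18, annotated as a pseudogene, was unlike most members in its level at 50 mM. It stood at 1.78, 5.93 and 2.32 FPKM in N2 of experiment 2 and at 12.42, 9.15 and 14.07 FPKM in daf-16 and 14.28 and 11.17 FPKM in N2 of experiment 1. At 500 mM the N2 libraries of experiment 2 (25.52, 21.72 and 25.29 FPKM) overlapped with daf-16 (28.95, 22.14 and 21.38 FPKM), so the lower daf-16 change came with a higher level at 50 mM and not with a lower one at 500 mM. At 500 mM N2 also overlapped with daf-16 for nlp-33, R08C7.1 and F56A4.2, while each N2 library lay above each daf-16 library for the other 89 (24.3% of all genes). F56A4.2 had N2 values of 10.51, 0 and 0 FPKM at 50 mM and 0, 6.12 and 26.27 FPKM at 500 mM, so its place among the 93 rested on 1 library.

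The 93 genes were chosen for a change under 2 in N2 of experiment 1, and their changes there ran from 0 to 1.987 with a median of 1.159 (27 over 1.5 and 33 under 1). Each 500 mM library lay above each 50 mM library for 60 of the 75 members that passed the filter of experiment 1 (33.7% of all 13924 genes that passed) and below for 1 (35.0% of all), which was F56H9.2. Of the 75 members 11 passed that filter only through the N2 libraries at 500 mM, so nothing is read from the 60. The experiments differed at 500 mM more than at 50 mM: with 1 added to both means, the N2 level of experiment 1 over that of experiment 2 had a median of 0.359 at 500 mM and 0.875 at 50 mM. Over the 13792 genes that passed in both experiments the medians were 1.04 and 1.06. At 500 mM the mean was lower in experiment 1 for 92 of the 93 genes, and for 89 each library was lower than each library of experiment 2, while at 50 mM each library was lower for 32 and higher for 10. Among the 75 members that passed in experiment 1 these numbers were 72 (29.3% of the genes that passed in both experiments), 29 (32.8%) and 10 (41.5%). The rule fixed the direction of this difference for the ratio of both NaCl levels. In experiment 2 the N2 mean at 50 mM was under 1 FPKM for 32 of the 93 genes. For genes near 0 FPKM at 50 mM the change is close to the 500 mM level, so the rule largely fixed the direction there too. Nothing is therefore read from the counts at 500 mM.

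Marker sums differed between the experiments as well. The 10 intestinal markers summed to 4873 to 6992 FPKM in N2 at 50 mM in experiment 2 and 1702 to 2186 FPKM in experiment 1, and at 500 mM to 1930 to 2128 FPKM and 1201 to 1378 FPKM. The 10 epidermal markers summed to 458.7 to 615.5 FPKM in experiment 2 and 1075 to 1125 FPKM in experiment 1 at 50 mM, and to 930.4 to 962.4 FPKM and 961.6 to 1061 FPKM at 500 mM. The 10 muscle markers summed to 3273 to 4032 FPKM in experiment 2 and 1922 to 2159 FPKM in experiment 1 at 50 mM, and to 2496 to 2706 FPKM and 1695 to 1915 FPKM at 500 mM. The pharynx and neuron marker sums were likewise higher in experiment 2 at 50 mM, at 1797 to 2221 against 1160 to 1322 FPKM and 1415 to 1623 against 947.3 to 1008 FPKM. At 500 mM the pharynx markers summed to 1279 to 1395 FPKM in experiment 2 and 848.4 to 1022 FPKM in experiment 1, and the neuron markers to 1008 to 1106 and 771.3 to 814.2 FPKM. These sums do not hold for each marker. At 50 mM the N2 means of elt-2 and elt-7 (intestine) and hlh-1, unc-97, pat-3, unc-52 and unc-112 (muscle) were lower in experiment 2. So were those of pha-4, ceh-22, pqn-8 and peb-1 (pharynx) and unc-119 (neurons), while that of lin-3 (epidermis) was higher. The 24 late embryo markers summed to between 11040 and 14150 FPKM in all libraries, but single genes among them differed. The means of dpy-7, a cuticle collagen gene, and noah-1, a gene of the embryonic outer coat, were 82.75 and 97.79 FPKM in N2 at 50 mM in experiment 2 and 318.7 and 468.3 FPKM in experiment 1, whereas that of the muscle myosin gene unc-54 was 718.8 and 274.1 FPKM. Of the 24 genes 8 (dpy-2, dpy-3, dpy-7, dpy-10, noah-1, noah-2, mlt-11 and let-653) had a change over 2 in N2 of experiment 2 and none did in N2 of experiment 1. Within experiment 2 the 24 early embryo markers summed to 405.4 to 419.5 FPKM in N2 and 522.5 to 838.4 FPKM in daf-16 at 500 mM. At 50 mM these sums were 314 to 423.1 and 318.6 to 348.1 FPKM. Among these markers the mean of pgl-3 was lower in daf-16 at 500 mM (2.42 against 2.557 FPKM). The intestinal and muscle sums in daf-16 at 500 mM were lower than in N2, at 1686 to 1874 and 2152 to 2422 FPKM. No marker of these lists was at 0 in all libraries. Their part in the difference between the experiments, or between N2 and daf-16, was not tested. Experiment and series of library numbers cannot be told apart, with 10 libraries of experiment 1 in 1 series and those of experiment 2 in 2 others.

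The ssu-1 libraries gave the 1 test that the choice of genes did not use. Of the 93 genes 75 passed the filter (1 FPKM or more in 2 or more of the 10 libraries) and 18 did not, among them icmt-1, cdr-3 and C08A9.3. With limma on log2(FPKM + 1) and Benjamini-Hochberg adjustment over 13924 genes, 16 of the 75 rose with salt in ssu-1 (21.3%, beside 18.5% of all genes tested) and 9 fell (12.0%, beside 18.1%), and 50 gave no call. Of the 75 genes 8 reached 1 FPKM in no ssu-1 library (H39E23.3, Y9C9A.16, C18D11.6, abf-2, F44D12.11, arrd-11, ZC196.2 and K11D12.13), and these 8 are all among the 50, so the counts rest on the other 67. At an unadjusted p under 0.05 there were 36 (beside 46.2% of all genes). The median log2 change of the 75 was 0.17 beside -0.004 over all genes tested, with 49 above 0 and 26 below 0. Each 500 mM library of ssu-1 lay above each 50 mM library for 35 of the 75 (30.4% of all genes) and below for 16 (30.7% of all genes). The share that passed the test in ssu-1 was near that of all genes, so these counts are no result about the 93 genes as a group.

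Those that rose were, besides dod-3, nlp-28, col-146, ttr-15, ttr-44, ugt-6, hyls-1, F15B9.6 and F11E6.11, the genes T10C6.15 (log2 change 0.99), D1086.2 (1.09), Y119C1B.12 (0.89), K10H10.5 (0.74), C50F7.5 (0.73), F44F4.3 (0.64) and Y54G2A.36 (0.41). Those that fell were, besides ttr-41, Y58A7A.2 (log2 change -0.93), the noncoding RNA linc-34 (-0.85), F56H9.2 (-0.71), T04C12.8 (-0.69), idpa-2 (-0.65), the serine protease inhibitor gene spi-2 (-0.65), C02E7.7 (-0.42) and nssp-41 (-0.40). Of the 16 genes that rose 7 (dod-3, nlp-28, col-146, ttr-15, F15B9.6, F11E6.11 and T10C6.15) and of the 9 that fell 3 (Y58A7A.2, F56H9.2 and spi-2) passed in all 17 alternative analyses. Without replicate 1 of ssu-1 at 50 mM 10 members rose and 3 fell.

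F56H9.2 had the lowest adjusted p of the 75 (limma adjusted p = 5.12e-05), from 233.2 and 207.0 FPKM to 135.3, 137.4 and 128.8 FPKM in ssu-1. In N2 of experiment 1 it was also lower with salt, from 232.7 and 263.2 FPKM to 182.0, 195.2 and 193.8 FPKM, whereas in N2 of experiment 2 it went from 193.1, 166.1 and 165.9 FPKM to 548.3, 533.5 and 494.1 FPKM. The salt libraries of N2 thus lay below the 50 mM libraries in experiment 1 and above them in experiment 2. For spi-2 ssu-1 fell from 5.83 and 6.29 FPKM to 3.33, 3.15 and 4.10 FPKM while N2 of the same experiment went from 7.94 and 7.37 FPKM to 16.26, 12.76 and 13.92 FPKM. The NaCl levels did not overlap in either genotype.

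**Figure D4:**
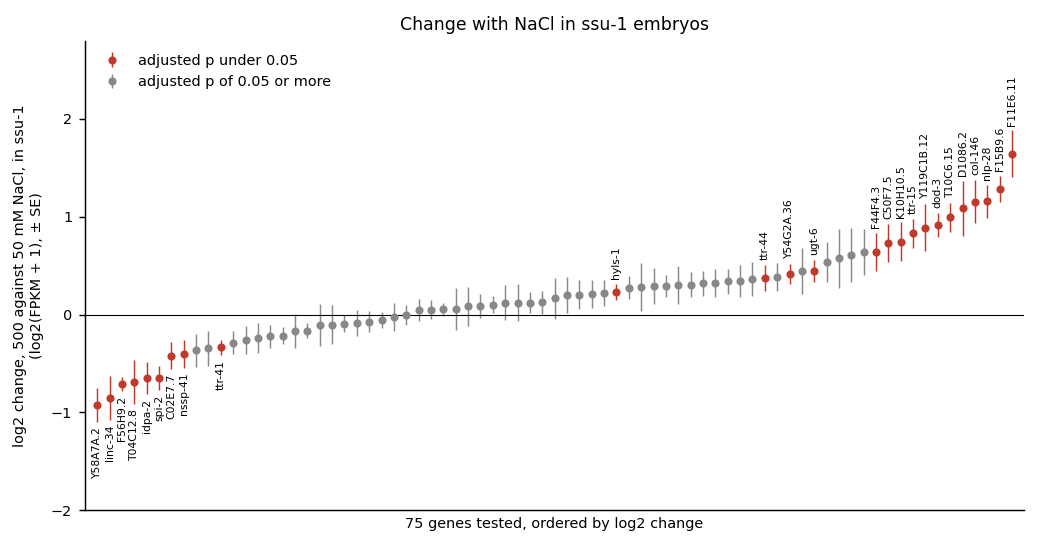
log2 change of FPKM + 1 from 50 to 500 mM NaCl in ssu-1 (points, limma estimate; bars, ± SE) of the 75 genes tested, ordered by size, with the 25 past the threshold in red and named. 16 lie above 0 and 9 below.

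In N2 and ssu-1 side by side, the difference in level was wider at 500 mM than at 50 mM, where the shares of the summed FPKM were already apart. At 500 mM each N2 library of experiment 1 lay above each ssu-1 library for 57 of the 75 members that passed the filter (9.12% of all genes) and below for none of them, and at 50 mM above for 23 (18% of all genes) and below for 4. Of the 75 members 11, of which 9 are among the 57, passed the filter only through the N2 libraries at 500 mM, so nothing is read from the 57. Among the 64 that passed without those libraries the number was 48 (8.88% of the genes that passed so). With 1 added to both means, the ssu-1 level over the N2 level had a median of 0.705 at 500 mM and 0.942 at 50 mM over the 93 genes, beside 1.016 and 1.015 over the genes that passed in both experiments. The N2 libraries of experiment 1 served in the choice of genes as an upper limit on the change, so this is given without a test. Examples at 500 mM are R05D7.1 (149.1 to 161.8 FPKM in N2, 62.5 to 66.08 FPKM in ssu-1) and nssp-41 (74.38 to 91.62 and 21.67 to 31.30 FPKM).

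Other sets of genes served for comparison. Those with a low daf-16 change and a change of 2 or more in N2 of experiment 1 as well numbered 75, had a median change of 18.08 in N2 of experiment 2 and 5.988 in N2 of experiment 1, and of these 40 of 75 rose (53.3%) and 2 fell in ssu-1. Those with a change over 2 in N2 of experiment 2 alone and 50% or more of it left in daf-16 numbered 731, had a median change of 2.47, and 411 of 724 tested rose (56.8%) and 36 fell. Over all genes tested in ssu-1 18.5% rose and 18.1% fell. The median log2 change in ssu-1 was 0.43 and 0.32 in these sets beside 0.17 in the 93. No test of the difference between the sets was made, and the choice by N2 of experiment 1 bears on all of them, the 93 included.

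The 93 genes were 85 protein-coding genes, 3 pseudogenes, 1 antisense RNA, 1 lncRNA, 1 ncRNA and 2 identifiers (T20F10.4 and W02H5.12) without a RefSeq match. Of the 91 with a chromosome 38 lay on chromosome V (41.8%, beside 21.03% of the genes that passed the filter), 18 on IV (19.8%, beside 15.99%), 13 on II, 10 on I, 7 on X and 5 on III. Apart from the transthyretin-like genes no family gave more than 2 members: of the nuclear hormone receptor genes 217 passed the filter in experiment 2 and none was a member, and the same held for 60 histone genes of the his family (the linker histone gene hil-1 is named otherwise) and 24 heat shock protein genes. No gene of the insulin to DAF-16 pathway was a member, and in ssu-1 10 of its 22 genes rose and 2 fell (beside 18.5% and 18.1% of all genes tested). Of 28 DAF-16 targets tested, 14 rose and 1 fell in ssu-1, beside the same 18.5% and 18.1%.

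The genes next to each limit show how fine the choice was. Just inside the limit of 2 on the change in N2 of experiment 2 were F31A3.3 (2.017), ttr-15 (2.066) and nlp-33 (2.078), and just outside were cest-8 (1.982), F55C12.2 (1.975) and F41E6.15 (1.97). Just inside the limit of 50% on the share left in daf-16 were T10C6.15 (49.6%), anc-1 (48.9%) and Y47D7A.13 (48.2%), and just outside were K10H10.4 (50.6%), C54E10.6 (50.8%) and ZK669.3 (51.1%). Just inside the limit of 2 in N2 of experiment 1 were R05D7.1 (1.987), dod-3 (1.983) and ttr-5 (1.959), and just outside were T03F6.6 (2.03), F02C12.1 (2.041) and fipr-13 (2.089). The 93 genes therefore run without a gap into genes that failed 1 limit.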

How the data were processed

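The authors sequenced stranded libraries (NeoPrep, 75-nucleotide paired-end reads) and mapped them to ce10 with RSEM 1.2.15 and Bowtie 1.0.1, per the submitters' processing notes and the study's methods. The deposited FPKM values, 1 column for each of 22 libraries, were used as the authors gave them. FPKM holds no read number, so the authors' DESeq2 test on counts could not be used, and depth is known only as a ratio: in 398 low genes 94.9% of 3653 values lay within 0.15 of whole multiples of the value of 1 read. Of 45461 identifiers 1 without a value in all libraries was left out, and 44079 matched RefSeq (assembly WBcel235), which served for names, biotypes, chromosomes and neighbours.

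The change was computed in Python 3.11.15 with pandas 2.3.3. The ssu-1 test used limma 3.58.1 in R 4.3.3 (lmFit, eBayes with trend) on log2(FPKM + 1) of the 10 libraries of experiment 1, in a model of 4 group means, for genes that reached 1 FPKM in 2 or more of them, and called genes at a Benjamini-Hochberg adjusted p under 0.05. Fold changes on this scale understate those of low genes. Tested on simulated data of that comparison (200 of 13655 genes changed), it recovered 50 of 50 genes raised and 50 of 50 lowered 4-fold, 45 of 50 raised 2-fold and 41 of 50 lowered 2-fold, and called 5 of 13455 unchanged genes. The changed genes were drawn only from those with a mean of 2 FPKM or more, and every gene had the same setting for its spread. Recovery among members of lower level was not simulated. The series design text calls the samples biological replicates.

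The members and lists were chosen with earlier results of these data known, part of the study's supplementary FPKM tables among them. Named genes were the 25 largest changes, the 5 highest and 5 lowest log2 changes in ssu-1, the 3 genes on either side of each limit and members of the listed families. The values of vps-13A, nceh-1, gpx-6, spp-20, ceh-79, spi-2, nssp-41, C02E7.7, C50F7.5, F44F4.3, Y54G2A.36, F56C3.9, hint-3, F44D12.11, arrd-11, ZC196.2, K11D12.13, R08C7.1 and F56A4.2 were picked after they were seen or to complete a count. Alternatives were another pseudocount, no filter, 2 scalings, no trend, ssu-1 alone, a replicate block and leaving out each library. A planned motif search in promoters was not carried out, and no sequences were used here.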

Additional observations from a re-analysis of the deposited data

Results flagged for a closer look

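The genes here were marked because each N2 library of experiment 1 was higher at 500 mM than each at 50 mM while each ssu-1 library was lower. Over all genes that passed the filter 33.7% met the condition in N2 and 30.7% that in ssu-1. The share that met both was not computed, so nothing is read from the number of genes marked. The difference between the genotypes was not tested, because the N2 libraries served in the choice of genes. For ttr-41 the change was 1.116 in N2 and 0.785 in ssu-1, for the C-type lectin gene clec-233 it was 1.159 and 0.740, for the noncoding RNA linc-34 it was 0.963 and 0.370, for F31A3.3 it was 1.531 and 0.812, for F56C3.9 it was 1.301 and 0.307, for hint-3 it was 1.831 and 0.776, for nssp-41 it was 1.809 and 0.740, and for spi-2 it was 1.654 and 0.500. The N2 values of linc-34 were 3.5 and 3.98 FPKM at 50 mM and 4.49, 5.07 and 4.13 FPKM at 500 mM, so its change lies under 1 only because 1 is added to the 50 mM mean. In ssu-1 ttr-41, linc-34, nssp-41 and spi-2 fell in the limma test, and clec-233 (limma adjusted p = 0.147), F31A3.3 (limma adjusted p = 0.111), F56C3.9 (limma adjusted p = 0.155) and hint-3 (limma adjusted p = 0.0715) did not pass it.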

How the results depend on the processing

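The number of genes under the rule was 93. It moved to 432 (54 of the 93 kept) with 0.1 added to both means in place of 1 to the 50 mM mean, and to 61 with a daf-16 change under 33.3% of that of N2. It was 120 (75 kept) with only replicate 5 of N2 at 50 mM in experiment 2, 96 (81 kept) after quantile normalization, 99 (87 kept) after rescaling to 1 total, 75 with the filter in both experiments, and 82 to 109 when each of the 17 libraries was left out in turn. In ssu-1 the counts were 10 to 21 that rose and 3 to 9 that fell when each of the 10 libraries was left out in turn, with the lowest of both (10 and 3) without replicate 1 of ssu-1 at 50 mM, and the median log2 change was 0.12 to 0.23. The fit without that library leaves 1 sample in its group, which is assumed to vary like the other groups. Under the other alternatives the counts stayed within 1.5 times those reported. Numbers did not pair the samples, since the correlations of same-numbered deviations ran from -0.40 to 0.25, and with the replicate block 15 members rose and 9 fell (median log2 change 0.16). The log2 changes that changed sign had no call in the reported fit. That of C56G2.9 was 0.0089 with the replicate block. With 1 library left out, those of abf-2 ran from -0.12 to 0.24, C56G2.9 from -0.31 to 0.11, anc-1 from -0.041 to 0.13, C25H3.18 from -0.037 to 0.64, nlp-33 from -0.090 to 0.26, fat-6 from -0.35 to 0.15 and ttr-5 from -0.029 to 0.13. The cause of these moves was not tested. The 18 members under the filter reached 1 FPKM in fewer than 2 of the 10 libraries of experiment 1, so they were not tested.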
